A study of Mus musculus with 12 samples.

Results

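The 10 genes described here encode enzymes that attach ADP-ribose to proteins or take it off again. They are Parp1, Parp2, Parp3, Parp4, Parp9, Parp12, Parp14, the tankyrase genes Tnks and Tnks2, and Parg. They were chosen by name from the 33246 genes in a table of raw counts. All 10 were counted in every sample, with 335 to 8458 counts, and all 10 were among the 14542 genes that passed the expression filter of edgeR and were tested.

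ADP-ribosylation is a protein modification made from NAD. Some PARP enzymes build chains of ADP-ribose (poly-ADP-ribosylation), as Parp1 does within moments of binding a DNA break, and others add a single unit (mono-ADP-ribosylation). The chains open chromatin, recruit repair factors, or mark proteins for ubiquitylation and breakdown, and the glycohydrolase Parg takes them apart. In fibroblasts the pathway is best known for DNA repair, for control of Wnt signalling through the tankyrases, and for the antiviral response, in which several mono-ADP-ribosylating members are induced by interferon.

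Primary fibroblasts from the ears of mice (C57BL/6 of 1 month and Tau-EGFP reporter mice are the sources that the study names) were used at passage 2, and 500000 cells were seeded per gel and kept for 48 h before poly-A RNA was sequenced. The gels were alginate carrying an RGD adhesion peptide, either elastic, with covalent cross-links, or slow-relaxing viscoelastic, with ionic cross-links of calcium, and each kind was made at 2 kPa and at 20 kPa. There were 3 samples in each of the 4 groups, so the kind of cross-link and the viscoelasticity of the gel cannot be told apart. The study calls the samples biological replicates and the labels do not say which mice they came from, so the p-values measure the spread between these samples.

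Totals ran from 36626221 to 43612804 counts per sample. Of 10 fibroblast markers all were tested, and their summed level was 58410 to 80400 CPM (counts scaled to a common library size) in every sample, led by the fibronectin gene Fn1. The 5 markers of cartilage cells, which the ear also holds, were present as well, at a summed 3975 to 5626 CPM led by Col2a1. Those of Schwann cells summed to 45.9 to 96.2 CPM. That sum rested mostly on S100b, which had a mean of 63.0 CPM by itself, so it does not establish that Schwann cells were present. Markers of keratinocytes, endothelium, leukocytes, fat, pigment cells and muscle summed to 10.8 CPM or less in any sample. In such bulk RNA, fewer cells of a type and less RNA per cell cannot be told apart.

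Set per kilobase of exon, which allows levels of different genes to be compared, Parp3 was the most abundant member, at a mean of 39.4 CPM per kb over the 12 samples. Tnks2 followed at 17.3 and Parp1 at 14.7 CPM per kb. Tnks, Parp4, Parg, Parp12, Parp2 and Parp9 lay close together, from 8.59 down to 6.19 CPM per kb, and Parp14 was the lowest at 1.07. Over the 12 samples Parp3 (33.5 to 48.9 CPM per kb) stayed above the other 9 and Parp14 (0.90 to 1.31) below them, while Tnks2 (15.5 to 19.2) and Parp1 (13.1 to 16.3) overlapped, as did those 6 genes. In the rest of the text CPM are normalized for library composition and not divided by length, and they are compared only within a gene.

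**Figure D1:**
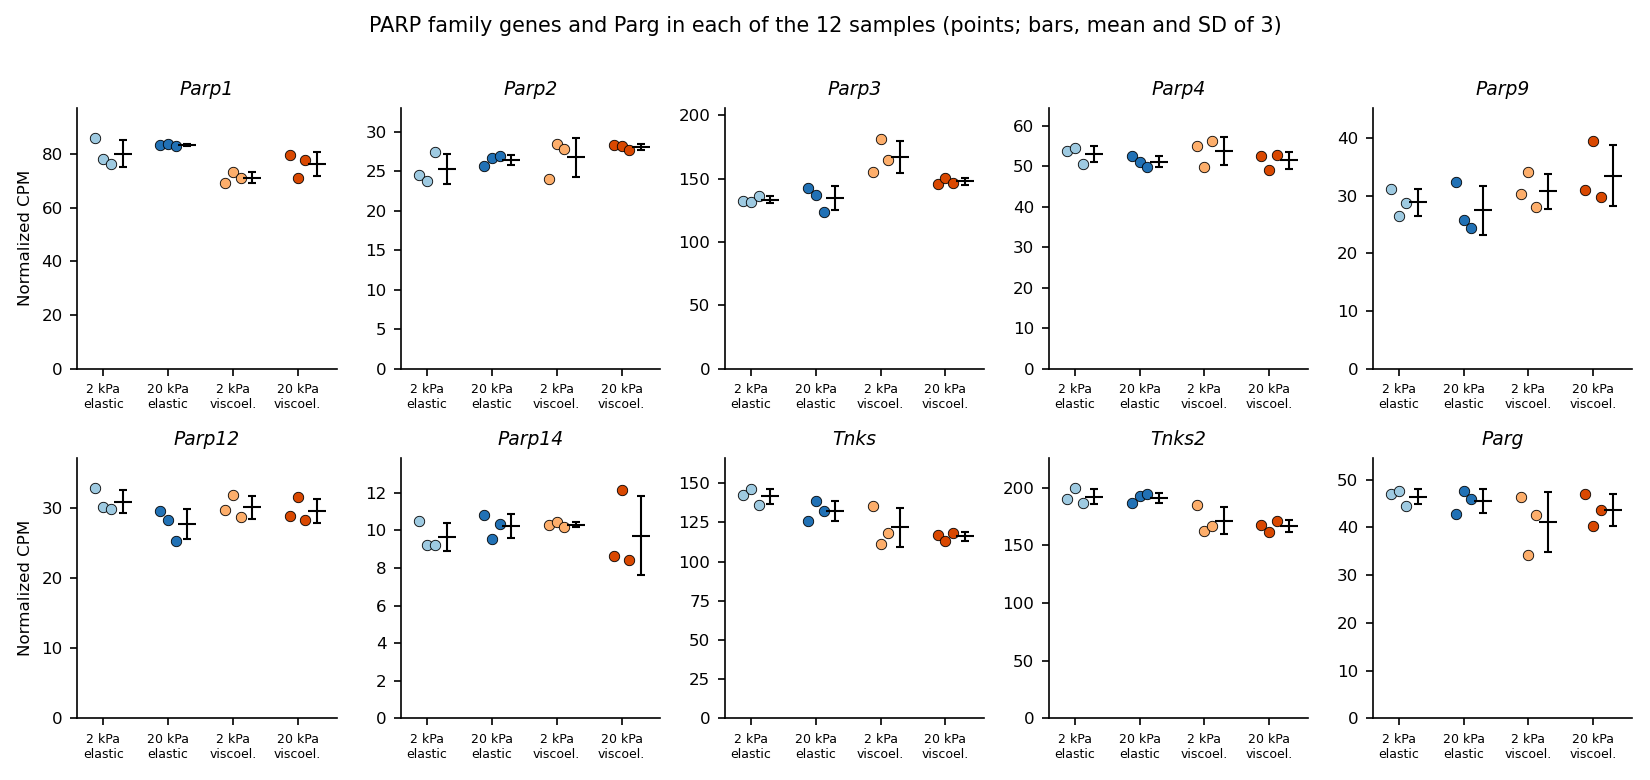
Normalized CPM (y axis, from 0) of the 10 genes in each sample by gel group (x axis), with points for samples and bars for the mean and SD of 3. Parp3 sat at 124 to 143 CPM in the 6 elastic samples and at 146 to 181 in the 6 viscoelastic samples, and Tnks2 at 187 to 200 and 161 to 185, while the other 8 genes overlapped between the gel kinds.

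The first question was whether viscoelasticity changed these genes at a given stiffness. On 2-kPa gels Parp3 rose and Tnks fell, and on 20-kPa gels Tnks and Tnks2 fell. The changes were small, between 12.2% and 25.4% of the elastic level. Genes were called at a Benjamini-Hochberg adjusted p under 0.05 in edgeR's quasi-likelihood test. On 2-kPa gels 2 of the 10 were called, beside 19.9% of all tested genes, and on 20-kPa gels 2 of the 10, beside 33.5% of all tested genes. Averaged over both stiffnesses the viscoelastic effect was called for Parp3, which was higher, and for Parp1, Tnks and Tnks2, which were lower, 4 of 10 beside 40.0% of all tested genes. Over all genes that effect had 2846 higher and 2971 lower calls, and 3538 higher and 2309 lower when samples were scaled by total counts alone. The called share of the set was thus near or below that of the genome as a whole. Their median log2 fold change, over both stiffnesses, was 0.01, as for all tested genes.

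The second question was whether stiffness changed them. It was called for 0 of the 10 on elastic gels, where 14.0% of all tested genes were called, and for 0 of the 10 on viscoelastic gels, where 2.28% were. Before adjustment 1 member had a p under 0.05 on elastic gels (Parp12) and 1 on viscoelastic gels (Parp3), and DESeq2's Wald test called 0 in each. The interaction, the change of the viscoelastic effect from 2 to 20 kPa, was called for 0 of the 10, with 0 also by DESeq2 and 0 with an unadjusted p under 0.05, beside 7.56% of all tested genes.

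**Figure D2:**
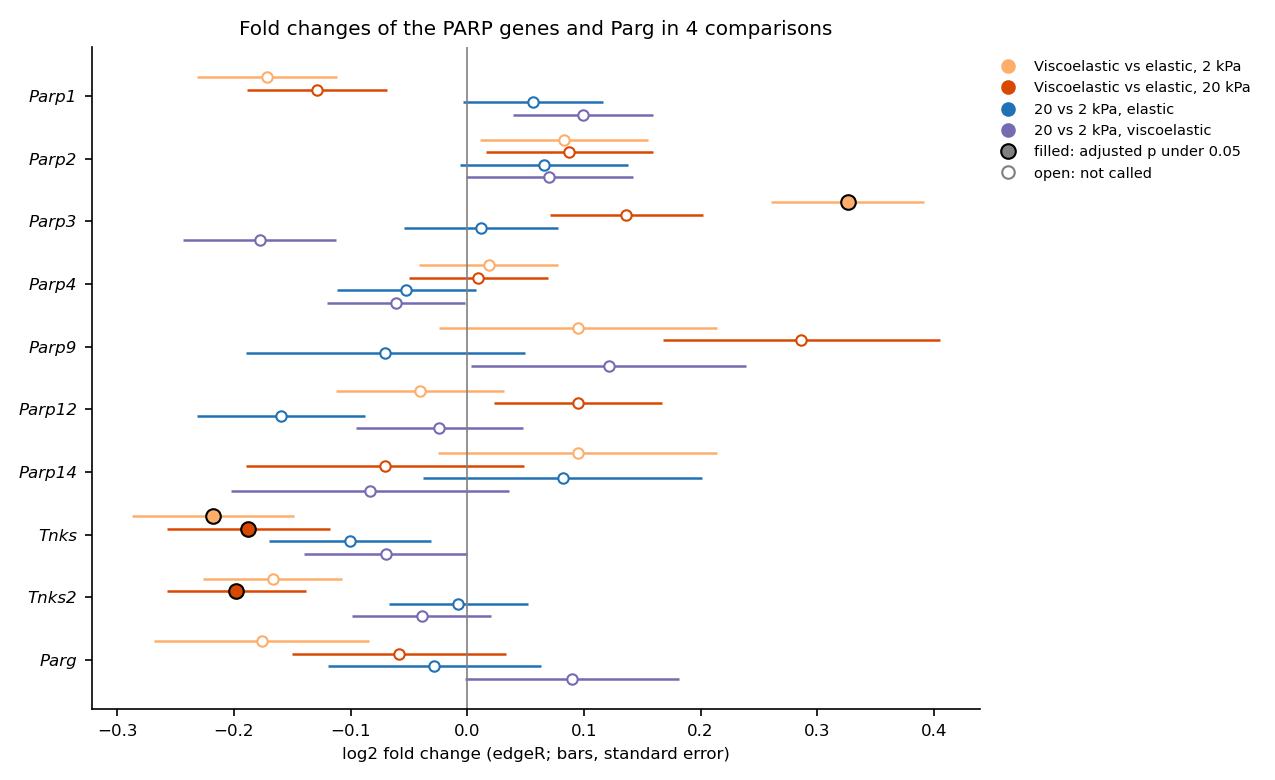
Log2 fold changes (x axis) of the 10 genes (y axis) for viscoelastic against elastic gels at each stiffness and for 20 against 2 kPa on each kind of gel, with bars for the standard error. Filled points have an adjusted p under 0.05, and they are Parp3 and Tnks at 2 kPa and Tnks and Tnks2 at 20 kPa.

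Parp1, Parp2 and Parp3 are the members that answer DNA breaks. Parp3 is a mono-ADP-ribosylating enzyme of double-strand break repair. On 2-kPa elastic gels its 3 samples had 133, 131 and 136 CPM, and on 2-kPa viscoelastic gels they had 156, 181 and 165 CPM. On 20-kPa gels the values were 143, 137 and 124 CPM on elastic and 146, 151 and 146 CPM on viscoelastic gels. Every viscoelastic sample was thus above every elastic sample, as was so, in either direction, for 2 of the 10 members (Parp3 and Tnks2) and for 12.4% of all tested genes. The rise at 2 kPa was 0.33 on the log2 scale (SE 0.07, adjusted p = 0.0034), or 25.4%.

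At 20 kPa the 3 viscoelastic samples again lay above the 3 elastic samples, by 0.14 on the log2 scale (SE 0.07), but this was not called (adjusted p = 0.12). The mean effect over both stiffnesses was 0.23 (SE 0.05, adjusted p = 0.0013), and the difference between the stiffnesses was not called (interaction −0.19, SE 0.09, adjusted p = 0.24). The order of its group means was 167 ± 12.8 CPM (SD, n = 3) on 2-kPa viscoelastic, 148 ± 2.71 on 20-kPa viscoelastic, 134 ± 9.57 on 20-kPa elastic and 133 ± 2.62 on 2-kPa elastic gels. No neighbours in that order differed by the test, while the highest group was called against both elastic groups, with a log2 fold change of 0.31 (adjusted p = 0.0042) against 20-kPa elastic gels, a comparison in which 22.8% of all genes were called. Both the 2-kPa call and that of the mean effect stood in each alternative fit, 22 of 22 and 21 of 21, with log2 fold changes from 0.27 to 0.38 at 2 kPa and from 0.20 to 0.27 for the mean. Rrp9, on the other strand, shares 20 exon bases with Parp3.

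Parp1 makes most of the poly-ADP-ribose that follows a DNA break and was the member lower on viscoelastic gels in this group. It is also a gene that the study itself named from these counts, so its direction here is not independent evidence. Its samples had 86.0, 78.3 and 76.3 CPM on 2-kPa elastic and 69.1, 73.3 and 71.3 CPM on 2-kPa viscoelastic gels. On 20-kPa gels they had 83.4, 83.7 and 83.1 CPM on elastic and 79.7, 71.2 and 77.9 CPM on viscoelastic gels. The gel kinds did not overlap at either stiffness, but the 6 samples of each kind did, since 79.7 CPM in a 20-kPa viscoelastic sample exceeded values on 2-kPa elastic gels. Groups did not overlap for 4 members at 2 kPa (36.3% of all tested genes) and for 5 at 20 kPa (49.9%).

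The log2 fold change of Parp1 was −0.17 (SE 0.06, adjusted p = 0.056) at 2 kPa and −0.13 (SE 0.06, adjusted p = 0.11) at 20 kPa, neither called. At 2 kPa it was called in 3 of 22 alternative fits, DESeq2's Wald test among them, and at 20 kPa in 0 of 22. The mean effect, −0.15 (SE 0.04, adjusted p = 0.011), was called, as was the difference of 2-kPa viscoelastic from 20-kPa elastic gels, the highest group (−0.23, adjusted p = 0.015). Scaled by total counts alone, the mean effect was −0.11 (adjusted p = 0.052). RNA of the proliferation markers was also lower on viscoelastic gels. The mean log2 level of the 20, relative to the mean over all samples, was 0.32 to 0.50 on 20-kPa elastic and 0.00 to 0.09 on 2-kPa elastic gels. On viscoelastic gels it was −0.37 to −0.05. With stiffness on elastic gels 15 of the 20 were called higher at 20 kPa, while Parp1 was not called (0.06, adjusted p = 0.59). The part of these markers in the result was not tested.

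The 5 genes whose log2 CPM followed Parp1 most closely over the 12 samples were Bop1 (Pearson r = 0.955), Ppm1g, Mad1l1, Atp5b and H2ax (r = 0.927). Bop1 acts in ribosome assembly, Mad1l1 in the spindle checkpoint, and H2ax encodes the histone variant that is phosphorylated beside DNA breaks. Apart from Atp5b (adjusted p = 0.15) each was itself called lower in the mean viscoelastic effect, with log2 fold changes from −0.23 to −0.14. The 5 genes were picked for following Parp1, which was itself called lower, so their direction is not separate evidence. All 12 samples share the gel design and the normalization, so these r values describe likeness only.

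Parp2, the closest relative of Parp1 and a second enzyme of single-strand break repair, was not called. It ranged from 23.8 to 28.5 CPM, and on 20-kPa gels the viscoelastic samples (28.4, 28.2 and 27.7 CPM) lay above the elastic ones (25.7, 26.6 and 27.0 CPM). The mean viscoelastic effect was 0.09 (SE 0.05, adjusted p = 0.20), of the opposite sign to that of Parp1. Parp2 starts 74 bp from Rpph1, the RNA of RNase P, which is read from the other strand.

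The promoters of 7 members were found in the RefSeq table for GRCm38.p6, and the 250 bases before the start are shown for Parp3, Parp1 and Tnks2, which are the called members among them. Capitals mark the GC box (GGGCGG or its reverse complement CCGCCC) and the CCAAT box (CCAAT or ATTGG), sought on both strands. The Parp3 window is chr9:106476950-106477199 on the minus strand, that of Parp1 chr1:180568641-180568890 and that of Tnks2 chr19:36833982-36834231, both on the plus strand.
Parp3: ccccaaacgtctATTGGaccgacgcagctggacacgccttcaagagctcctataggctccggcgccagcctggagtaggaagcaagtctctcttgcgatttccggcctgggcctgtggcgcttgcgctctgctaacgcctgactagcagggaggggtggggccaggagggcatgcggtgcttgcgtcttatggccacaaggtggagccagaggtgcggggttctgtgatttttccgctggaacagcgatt
Parp1: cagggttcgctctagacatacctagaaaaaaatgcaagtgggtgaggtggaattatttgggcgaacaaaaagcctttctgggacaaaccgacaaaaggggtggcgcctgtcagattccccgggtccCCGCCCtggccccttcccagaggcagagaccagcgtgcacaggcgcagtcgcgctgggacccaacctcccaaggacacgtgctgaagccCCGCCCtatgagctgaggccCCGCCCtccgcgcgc
Tnks2: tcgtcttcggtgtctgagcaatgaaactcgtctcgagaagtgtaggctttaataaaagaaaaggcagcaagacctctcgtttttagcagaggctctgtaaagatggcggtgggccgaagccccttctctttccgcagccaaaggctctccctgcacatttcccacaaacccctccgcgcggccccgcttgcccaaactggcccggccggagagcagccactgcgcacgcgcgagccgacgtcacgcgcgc

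Parp1 held 3 GC boxes and no CCAAT box, Parp3 held 1 CCAAT box and no GC box, and Tnks2 held neither. A GC box was held by 32.7% and a CCAAT box by 33.8% of all 32851 promoters of this length. Parp2 and Parp4 held 1 GC box each, and Parp4 also 1 CCAAT box, while Parp12 and Parg held neither. An interferon response element, sought on both strands as GAAA, any 2 bases and GAAA, was present in 2.98% of all promoters and matched in Parp4, with 2 overlapping matches, and in none of the other 6, Parp12 included. A match is a description of the letters and not a bound site.

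Tnks and Tnks2, the tankyrases, are poly-ADP-ribosylating enzymes that mark axin, angiomotins and the telomere protein Terf1 for removal. Both fell on viscoelastic gels. Tnks had 142, 146 and 136 CPM on 2-kPa elastic and 136, 111 and 118 CPM on 2-kPa viscoelastic gels. At 20 kPa the Tnks level was 126, 139 and 132 CPM on elastic and 117, 113 and 118 CPM on viscoelastic gels. Replicate 1 on 2-kPa viscoelastic gels was the high sample of its group and lay within the elastic range, and the other 5 viscoelastic samples were below all 6 elastic samples.

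For Tnks the log2 fold change was −0.22 (SE 0.07, adjusted p = 0.039) at 2 kPa, −0.19 (SE 0.07, adjusted p = 0.0499) at 20 kPa and −0.20 (SE 0.05, adjusted p = 0.0046) as a mean. The last of these held in 19 of 21 alternative fits, while the calls at 2 and 20 kPa held in 10 and 7 of 22. The largest gap between groups was that of 20-kPa viscoelastic from 2-kPa elastic gels, −0.29 (adjusted p = 0.0061), where 31.4% of all genes were called. Tnks lies on chromosome 8, from 34826460 to 34965690 of GRCm38, and 635 of its exon bases overlap Gm9939 on the other strand.

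Tnks2 had 191, 200 and 187 CPM on 2-kPa elastic and 185, 162 and 167 CPM on 2-kPa viscoelastic gels. At 20 kPa the samples had 187, 193 and 194 CPM on elastic and 167, 161 and 171 CPM on viscoelastic gels. Again replicate 1 of the 2-kPa viscoelastic group was its highest sample, here just below the lowest elastic values. The fall was called at 20 kPa, by 0.20 on the log2 scale (SE 0.06, adjusted p = 0.019), and as a mean, by 0.18 (SE 0.04, adjusted p = 0.0033). The call at 20 kPa was lost without 20-kPa elastic replicate 2 or 3 or 20-kPa viscoelastic replicate 2, with adjusted p from 0.060 to 0.070. At 2 kPa it was 0.17 lower (SE 0.06, adjusted p = 0.061), and without that replicate the log2 fold change was −0.22 (adjusted p = 0.016). Both tankyrases had the same order of group means, 2-kPa elastic, 20-kPa elastic, 2-kPa viscoelastic and 20-kPa viscoelastic gels from high to low, with no neighbours called apart.

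The tankyrase genes have the longest exon sequence of the 10, 14888 bases for Tnks and 10406 for Tnks2 in GENCODE M21, and the change on viscoelastic gels moved with length over all genes. The median log2 fold change of the mean effect was 0.15 for genes with up to 2 kb of exon, 0.07 from 2 to 4 kb, −0.02 from 4 to 6 kb and −0.12 above 10 kb, where 73.6% of 1352 genes were lower. With an offset that removes the trend with length in each sample, Tnks was at −0.06 (adjusted p = 0.23) and Tnks2 at −0.07 (adjusted p = 0.11), neither called. Parp3 (3699 bases) kept 0.21 (adjusted p = 0.0024) and Parp1 (5293 bases) was at −0.12 (adjusted p = 0.039), which was not called when a replicate block was added to that offset (−0.12, adjusted p = 0.055). The 5 genes most like Tnks over the 12 samples, Hipk1 (r = 0.983), Aff4, Psd3, Wdr7 and Btbd7 (r = 0.973), had 10188 to 17632 bases of exon and were each called lower, by 0.19 to 0.38 on the log2 scale. They were picked for following Tnks, which was itself called lower, so their direction is not separate evidence. Their r values describe likeness only. Whether RNA quality or coverage differed between the gels was not tested.

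**Figure D3:**
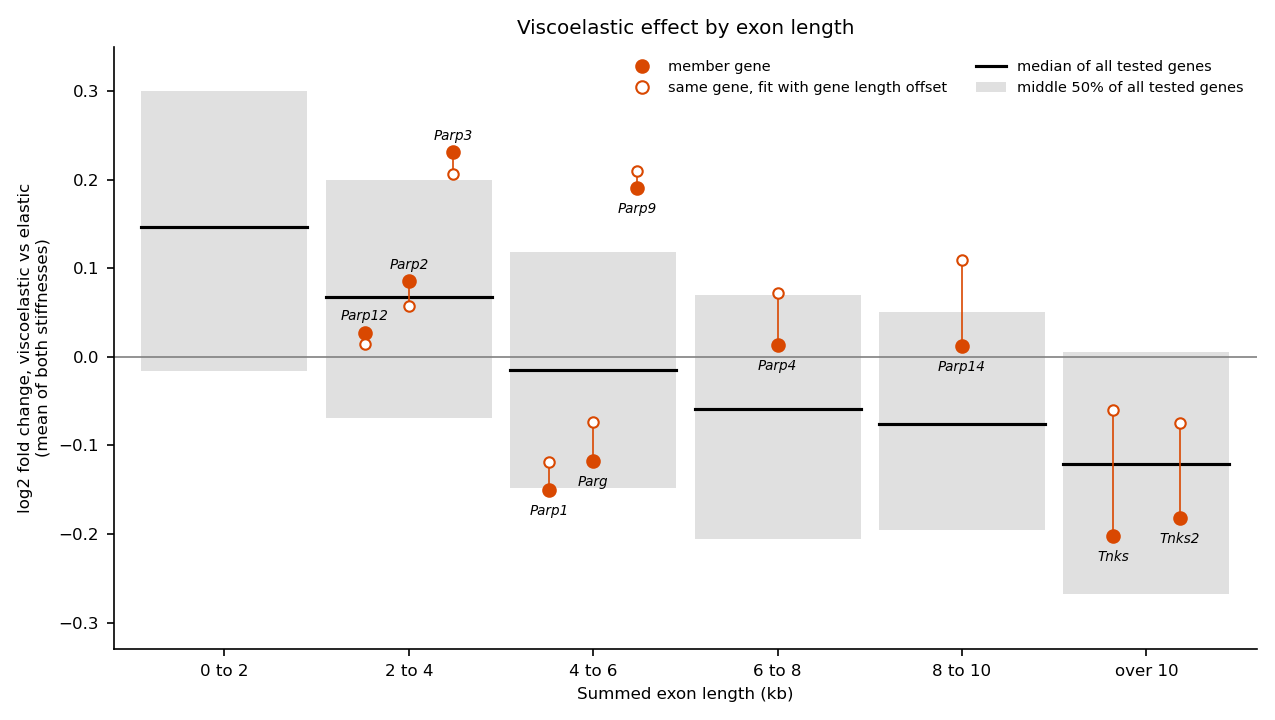
Mean viscoelastic log2 fold change (y axis) by summed exon length in kb (x axis), with black lines for the median and grey boxes for the middle 50% of all tested genes in each length class. Filled points are the 10 genes and open points the same genes in the fit with a gene length offset, where Tnks moved from −0.20 to −0.06 and Parp3 from 0.23 to 0.21.

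Parp9, Parp12 and Parp14 are members that interferon induces, of which Parp12 and Parp14 are mono-ADP-ribosylating enzymes. Parp9 works with the ubiquitin ligase Dtx3l, Parp12 acts against RNA viruses, and Parp14 modulates cytokine signalling. None of the 3 was called in any of the 6 comparisons. Parp9 had 31.2, 26.6 and 28.8 CPM on 2-kPa elastic, 32.3, 25.7 and 24.4 on 20-kPa elastic, 30.4, 34.1 and 28.0 on 2-kPa viscoelastic and 31.1, 39.6 and 29.8 on 20-kPa viscoelastic gels. The groups overlapped, and the log2 fold change was 0.10 (SE 0.12, adjusted p = 0.61) at 2 kPa and 0.29 (SE 0.12, adjusted p = 0.076) at 20 kPa. The latter was called when samples were scaled by total counts alone (0.32, adjusted p = 0.048), with no filter on low counts (0.28, adjusted p = 0.018) and without replicate 1 of the 20-kPa elastic group (0.40, adjusted p = 0.018). Without replicate 2 of the 20-kPa viscoelastic group it was 0.15 (adjusted p = 0.36).

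Parp14 had 8.61, 12.2 and 8.40 CPM on 20-kPa viscoelastic gels, and 9.21 to 10.8 CPM in the other 9 samples. Replicate 2 of that group therefore held the highest value of the 12 and its neighbours the lowest. The log2 fold change at 20 kPa was −0.07 (SE 0.12, adjusted p = 0.68) with all samples and −0.26 (adjusted p = 0.049) without that replicate. Parp12 ranged from 25.3 to 32.8 CPM, and at 0.03 (SE 0.05, adjusted p = 0.70) its mean viscoelastic effect was small. On elastic gels its 20-kPa samples (29.5, 28.3 and 25.3 CPM) lay below the 2-kPa samples (32.8, 30.2 and 29.8 CPM), which was not called (−0.16, SE 0.07, adjusted p = 0.16) and was so for 35.6% of all tested genes in one direction or the other.

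These 3 members are read beside the interferon-stimulated genes of the same samples. The mean log2 level of 32 such genes, relative to the mean over all samples, was 0.68 in replicate 2 of the 20-kPa viscoelastic group, 0.39 in replicate 2 of the 2-kPa viscoelastic group, 0.32 in replicate 1 of the 2-kPa elastic group and 0.21 in replicate 1 of the 20-kPa elastic group, and below 0 in the other 8. In each of those 4 samples Parp9 was the highest of its group, at 0.40, 0.19, 0.06 and 0.11 on the same scale, and so were Parp12 and Parp14. Isg15 and Ifit1, which encode antiviral effectors, stood 1.55 and 1.54 above their means in the first of them. Each group held 1 such sample, and the cause of these sample differences was not tested.

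**Figure D4:**
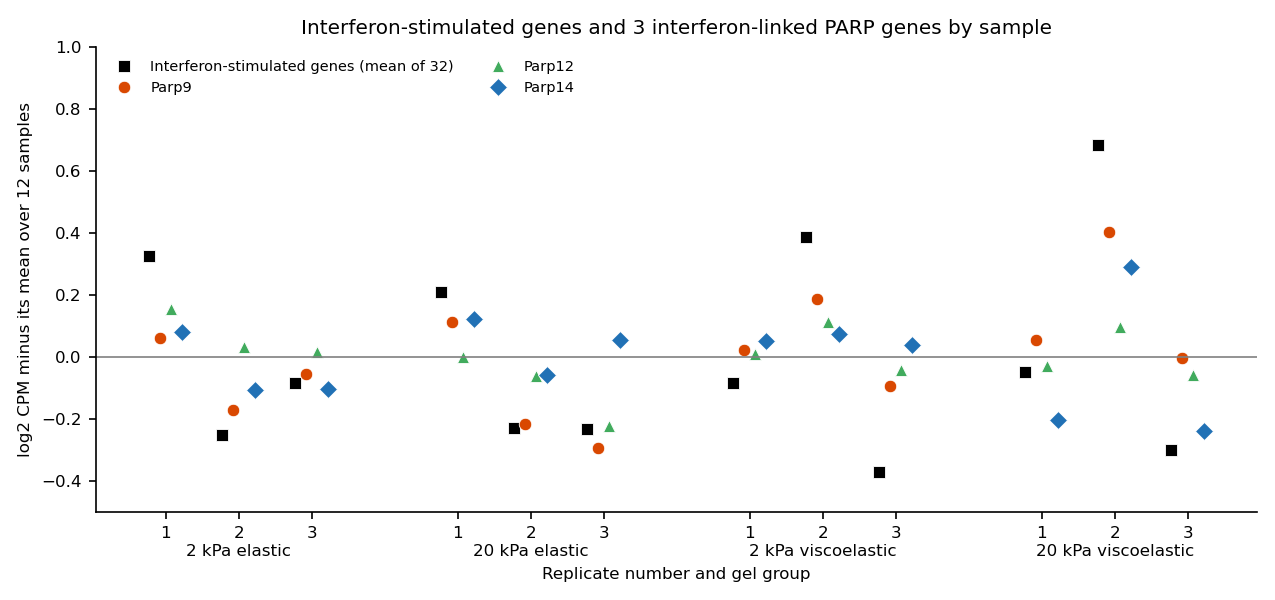
Log2 CPM minus its mean over the 12 samples (y axis) for each sample by replicate and group (x axis), with squares for the mean of 32 interferon-stimulated genes and other symbols for Parp9, Parp12 and Parp14. Replicate 2 of the 20-kPa viscoelastic group is the highest for the gene list (0.68), Parp9 (0.40) and Parp14 (0.29).

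The genes whose level followed Parp14 most closely were Dusp1 (r = 0.881), Angptl7, Gm22748, Ltb4r1 and Plpp3 (r = 0.818). None of the 5 was called in the mean viscoelastic effect, and Parp14 itself stood at 0.01 (SE 0.08, adjusted p = 0.93). Parp9 and Dtx3l share 458 exon bases on opposite strands and start 681 bp apart, and since the strand setting of the counting is not stated, their reads cannot be told apart there. Dtx3l was not called either, at 0.01 for the mean effect (adjusted p = 0.92).

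Parp4 is the PARP of the vault particle, a large ribonucleoprotein barrel in the cytoplasm. It was among the steadiest members, with 49.0 to 56.4 CPM over the 12 samples and a mean viscoelastic effect of 0.01 (SE 0.04, adjusted p = 0.82). Its viscoelastic samples held both the lowest and the highest value. It shares 335 exon bases with the antisense gene Gm16573.

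Parg, which degrades poly-ADP-ribose chains, had 47.0, 47.6 and 44.6 CPM on 2-kPa elastic and 46.4, 34.2 and 42.6 CPM on 2-kPa viscoelastic gels. At 20 kPa the Parg level was 42.9, 47.7 and 46.0 CPM on elastic and 47.1, 40.4 and 43.7 CPM on viscoelastic gels. The groups overlapped at both stiffnesses, and 34.2 CPM in replicate 2 of the 2-kPa viscoelastic group stood apart as the lowest value. The mean viscoelastic effect was −0.12 (SE 0.06, adjusted p = 0.16). Without that sample it was −0.059 (adjusted p = 0.36), and without replicate 1 of the same group it was called, at −0.17 (adjusted p = 0.039), as was the effect at 2 kPa (−0.27, adjusted p = 0.044). Timm23, which is read the other way, starts 51 bp from Parg.

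The 7 further PARP genes of the table that were tested comprise Parp6, Parp8, Parp10, Parp11 and Parp16, the dioxin-inducible Tiparp and the antiviral RNA-binding Zc3hav1. Of these, 1 of 7 was called in the mean viscoelastic effect, beside 40.0% of all tested genes. It was Tiparp, at −0.20 (adjusted p = 0.043). The call of Tiparp was lost with scaling by total counts alone (−0.17, adjusted p = 0.10) and when any of 9 samples was left out. Its level was 78.2, 75.9 and 81.7 CPM on 2-kPa elastic and 55.8, 47.8 and 64.4 CPM on 2-kPa viscoelastic gels, a fall of 0.49 on the log2 scale (adjusted p = 0.0058). At 20 kPa it was at 60.0, 72.4 and 78.4 CPM on elastic and 82.4, 69.3 and 70.9 CPM on viscoelastic gels, with no call (0.08, adjusted p = 0.60).

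Parp8 was called for stiffness on elastic gels, where it fell from 38.8, 37.0 and 37.6 CPM to 31.6, 30.5 and 30.5 CPM (−0.29, adjusted p = 0.015). In the mean viscoelastic effect it was not called. Parp6 (0.11), Parp10 (0.21), Parp11 (0.05), Parp16 (0.16) and Zc3hav1 (−0.06) had adjusted p from 0.056 to 0.53 in that effect.

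**Figure D5:**
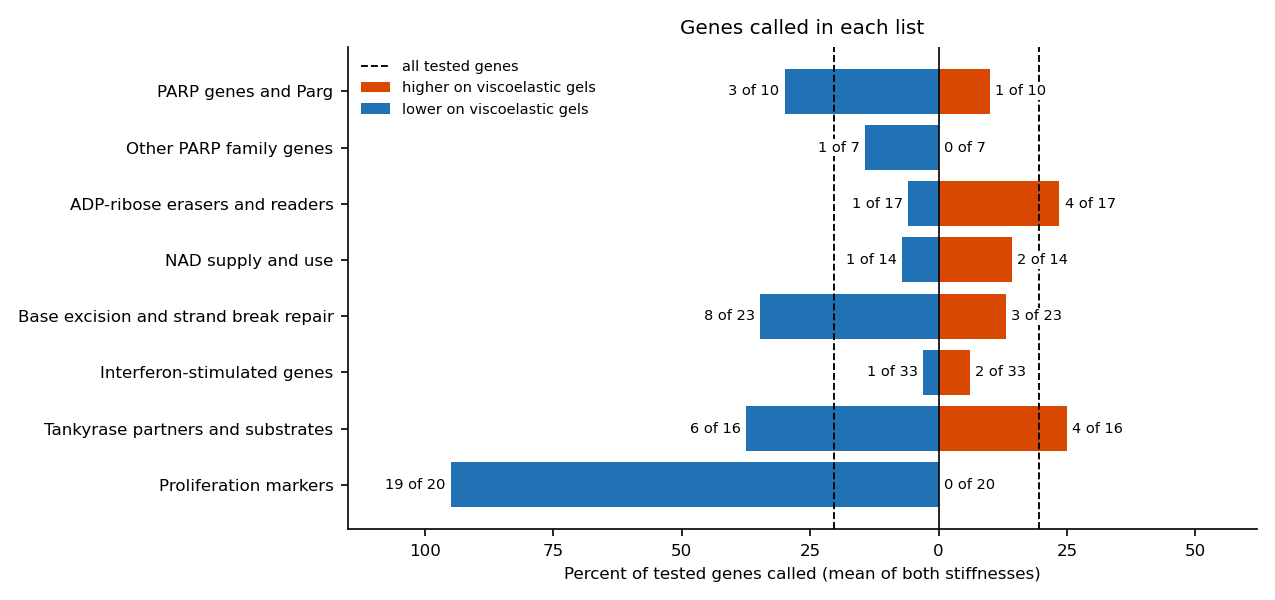
Percent of the tested genes of each list (y axis) called higher (right) or lower (left) on viscoelastic gels in the mean effect over both stiffnesses (x axis), with dashed lines for all tested genes, at 19.6% higher and 20.4% lower. The proliferation markers stand out with 19 of 20 lower, and the PARP genes and Parg had 3 of 10 lower and 1 higher.

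Most genes for enzymes that remove or bind ADP-ribose did not pass the test. In the mean viscoelastic effect 4 of 17 rose, among them the mono-ADP-ribose hydrolase gene Macrod2 (0.56, adjusted p = 0.001) and Nudt16 (0.29, adjusted p = 0.011), and 1 of 17 fell, beside 19.6% and 20.4% of all genes. The gene that fell was Enpp1, which encodes a surface pyrophosphatase best known from mineralization, by 0.91 on the log2 scale (adjusted p = 9.2e-06), from 217 to 315 CPM on elastic to 130 to 167 CPM on viscoelastic gels. Hpf1, which lets Parp1 and Parp2 modify serine, was at −0.07 (adjusted p = 0.34) and Rnf146, the ubiquitin ligase that reads tankyrase chains, at 0.12 (adjusted p = 0.11). The median of the list was 0.05, with 0.01 for all tested genes. Its 4 higher calls became 2 without replicate 2 of the 20-kPa elastic group.

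Of the genes that supply or use NAD, 2 of 14 rose and 1 fell in the mean effect, beside 19.6% and 20.4% of all genes. Nnmt, which methylates nicotinamide, rose by 0.40 (adjusted p = 0.00074) and the nicotinamide riboside kinase gene Nmrk1 by 0.23 (adjusted p = 0.017), while the NAD-consuming Cd38 fell by 0.25 (adjusted p = 0.027). The Cd38 call was lost without replicate 1 of the 2-kPa elastic, the 20-kPa elastic or the 20-kPa viscoelastic group. Nampt, the rate-limiting enzyme of NAD salvage, was at 0.07 (adjusted p = 0.20).

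Among base excision and strand break repair genes 3 of 23 rose and 8 of 23 fell in the mean effect, beside 19.6% and 20.4% of all genes. Nthl1, a glycosylase for oxidized bases, rose by 0.45 (adjusted p = 0.00061) and Aptx, which cleans blocked DNA ends, by 0.27 (adjusted p = 0.0017). Lig1 fell by 0.45 (adjusted p = 4.3e-05) and Neil3 by 0.36 (adjusted p = 0.00094). Lig1, Fen1 and Pcna, all among the 8 that fell, also copy DNA in S phase, and Pcna is on the list of proliferation markers too, of which 19 of 20 fell. Mcm5 fell by 0.56 and Mcm3 by 0.47 (adjusted p = 1.9e-05 and 2.5e-05), both of the replicative helicase, and Mki67 by 0.63 (adjusted p = 4.3e-05). These are RNA levels, and the EdU labelling that the study reports did not show less proliferation on viscoelastic gels. Xrcc1, the scaffold that Parp1 recruits to single-strand breaks, was at 0.05 (adjusted p = 0.47).

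The genes for proteins that tankyrases bind or modify were mixed, with 4 of 16 higher and 6 of 16 lower in the mean effect, beside 19.6% and 20.4% of all genes. With samples left out the counts ran from 2 to 5 higher and from 4 to 6 lower, with 2 higher without replicate 2 of the 2-kPa elastic, replicate 2 or 3 of the 20-kPa elastic or replicate 3 of the 20-kPa viscoelastic group. Blzf1, of the Golgi, rose by 0.26 (adjusted p = 0.00065) and the angiomotin family gene Amotl2 by 0.21 (adjusted p = 0.0097) as a mean. The 2 stiffnesses differed in direction for Amotl2. Its group means were 247 CPM on elastic and 380 CPM on viscoelastic gels at 2 kPa, and 341 and 296 CPM at 20 kPa. The difference at 20 kPa was not called by edgeR but was called by DESeq2's Wald test. Lnpep, an aminopeptidase of insulin-responsive vesicles with 14144 exon bases, fell by 0.42 (adjusted p = 0.00015) and Amot by 0.39 (adjusted p = 0.00047). Axin2, a target and brake of Wnt signalling, was higher by 0.26 as a mean (adjusted p = 0.033) and by 0.76 at 20 kPa (adjusted p = 0.00058). At 2 kPa its group mean was 4.59 CPM on elastic and 3.89 CPM on viscoelastic gels, which was not called.

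The interferon-stimulated genes had 2 of 33 higher and 1 lower in the mean effect, beside 19.6% and 20.4% of all genes. The called genes were Psmb9 (0.59, adjusted p = 0.008), Gbp2 (0.25, adjusted p = 0.026) and Trim25 (−0.16, adjusted p = 0.027). With samples left out the higher calls ran from 1 to 5 and the lower calls from 0 to 1, with 1 higher without replicate 2 of any group or replicate 3 of the 20-kPa elastic group, 4 without replicate 1 of the 2-kPa elastic group and 5 without replicate 3 of the 20-kPa viscoelastic group. The median of the list was 0.00 at 2 kPa, 0.33 at 20 kPa and 0.19 in the mean effect. Without replicate 2 of the 20-kPa viscoelastic group, the sample with the highest interferon-stimulated level, it was −0.0074 at 20 kPa and −0.012 in the mean effect.

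The lists were also counted in the single comparisons. On 2-kPa gels, where 8.77% of all tested genes were called higher and 11.1% lower on viscoelastic gels, the proliferation markers had 0 higher and 13 of 20 lower, the repair genes 1 higher (Nthl1) and 4 of 23 lower, and the tankyrase partners 3 higher and 4 of 16 lower. The genes that remove or bind ADP-ribose had 1 higher (Macrod2) and 1 lower (Enpp1), those of NAD 2 of 14 higher and 0 lower, and the interferon-stimulated genes 2 of 33 higher and 0 lower. On 20-kPa gels, with 17.4% higher and 16.1% lower over all genes, 18 of 20 proliferation markers and 6 of 23 repair genes were lower, and 0 and 3 were higher. There the ADP-ribose removal and binding list had 4 of 17 higher and 1 lower, that of NAD 0 higher and 2 of 14 lower, the interferon list 1 higher and 2 of 33 lower, and the tankyrase partners 3 higher and 2 of 16 lower.

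Stiffness moved the proliferation markers on elastic gels, where 15 of 20 were higher at 20 kPa and 0 lower, beside 6.81% higher and 7.14% lower over all genes. The repair list had 1 of 23 higher there, the tankyrase partners 2 higher and 4 of 16 lower, the interferon list 2 higher and 1 of 33 lower, the NAD list 1 of 14 higher, and the ADP-ribose removal and binding list 0 of 17 in either direction. On viscoelastic gels, with 1.58% higher and 0.695% lower over all genes, the proliferation, repair, interferon and ADP-ribose removal lists had 0 calls, while those of NAD and of tankyrase partners had 1 lower each. Unadjusted p under 0.05 was reached there by 3, 2, 0 and 3 of their genes, with 0 calls by DESeq2 in each. The interaction, at 4.45% above 0 and 3.12% below over all genes, was called for 3 of 16 tankyrase partners, 2 of the 7 further PARP genes, and 1 gene each of the proliferation, NAD and interferon lists.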

How the data were processed

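RNA from the 12 samples was trimmed with Trimmomatic, aligned to mm10 with STAR and counted on GENCODE genes with featureCounts by the authors, who deposited raw counts per gene for each sample. The GENCODE release, the strand setting and the handling of multimapping reads are not given in the sources used here. The counts were fitted in edgeR 4.0.16 (R 4.3.3) with filterByExpr (minimum count 10, minimum total 15), TMM normalization, 1 coefficient per group and the quasi-likelihood test. All p-values were adjusted by the Benjamini-Hochberg method over the 14542 tested genes, and an adjusted p under 0.05 was called. Totals of 36626221 to 43612804 counts gave each member at least 335 counts per sample, and the common biological variation was 7.50%. Log2 CPM used a prior count of 2.

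Exon lengths and gene positions came from GENCODE M21 (GRCm38), which matched 27814 of the 33246 listed genes by symbol, 2682 after punctuation was replaced and 476 by synonym, with 2274 unmatched. Length was known for 98.4% of tested genes. The length and GC offsets were loess trends of span 0.5 in each sample. Promoters are RefSeq sequences for GRCm38.p6.

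The 10 members, the gene lists and the tests were chosen with earlier results of these data known. Named genes were the 10 members, the 7 further PARP genes, up to 2 rising and 2 falling genes per list with the lowest adjusted p in the mean viscoelastic effect, 8 genes of known partnership or function (1 of which is not reported here), and the 5 genes most like Parp1, Parp14 and Tnks. Fen1, Pcna, Isg15, Ifit1, Bst1 and list members named beside a count were added after their values were seen. Alternatives were size factors of DESeq2 1.42.0 and its Wald test, scaling by totals, no filter on low counts, only the samples compared, a replicate block, length and GC offsets with and without that block, and leaving out each sample.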

Additional observations from a re-analysis of the deposited data

Results flagged for a closer look

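The effect of viscoelasticity differed between 2 and 20 kPa for 6 of the genes named here, by edgeR's test of the interaction with Benjamini-Hochberg adjustment over all tested genes, of which 7.56% were called. Tiparp, the dioxin-inducible PARP, was lower on viscoelastic gels at 2 kPa (−0.49) and not at 20 kPa (0.08), a difference of 0.57 on the log2 scale (adjusted p = 0.033). For Parp8 the log2 fold change was −0.19 at 2 kPa and 0.19 at 20 kPa, neither called, and the difference of 0.38 was (adjusted p = 0.034). Both calls were lost when any of 9 samples was left out, with log2 differences of 0.44 to 0.60 for Tiparp and 0.30 to 0.41 for Parp8 in those fits.

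Among the tankyrase partners, Axin2 had 4.95, 4.38 and 4.45 CPM on 2-kPa elastic and 3.23, 3.87 and 4.58 CPM on 2-kPa viscoelastic gels. On 20-kPa gels it had 3.48, 2.90 and 3.23 CPM on elastic and 5.69, 5.30 and 5.29 CPM on viscoelastic gels, and the interaction was 1.00 (adjusted p = 0.0036). Amotl2 went the other way, with 225, 257 and 259 CPM against 383, 416 and 342 CPM at 2 kPa, elastic before viscoelastic, and 373, 321 and 329 CPM against 289, 302 and 298 CPM at 20 kPa. Its interaction was −0.83 (adjusted p = 0.00058).

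Psmb9, an immunoproteasome subunit counted at under 2 CPM in every sample, had an interaction of 1.19 (adjusted p = 0.034), with 0.00 at 2 kPa and 1.19 at 20 kPa. The call was lost when any of 8 samples was left out, with values of 1.052 to 1.198. Bst1, an NAD-consuming surface enzyme, rose on viscoelastic gels at 2 kPa, from 2.48, 3.31 and 2.72 CPM to 7.81, 5.67 and 5.77 CPM, and fell at 20 kPa, from 5.74, 5.27 and 6.07 CPM to 3.39, 3.37 and 3.41 CPM. Its interaction was −1.93 (adjusted p = 7.3e-05), and it was named after its values were seen.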

How the results depend on the processing

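Each member's fold change in 6 comparisons was recomputed under the alternatives. With all samples in, 536 of these values kept their direction and their side of the threshold, 18 changed sign, 19 lost a call and 7 gained one. With 1 sample left out, 651 kept both, 41 changed sign, 19 lost a call and 9 gained one. The counts of members called for stiffness on either gel and for the interaction were 0 throughout. For viscoelasticity at 2 kPa, 2 members were called, with 1 under total counts alone, only the samples compared, the replicate block, the gene length offset and both together, and 4 by DESeq2's Wald test. Those 4 were Parp1, Parp3, Tnks and Tnks2. With samples left out the count at 2 kPa ranged from 1 to 4. It was 4 without 2-kPa viscoelastic replicate 1 and 1 without replicate 2 or 3 of that group, 2-kPa elastic replicate 1 or 2, 20-kPa elastic replicate 1, or 20-kPa viscoelastic replicate 1 or 3. At 20 kPa the count of 2 was 1 under the replicate block and the block with a GC offset, and 0 under the length offset with or without the block. It ranged from 0 to 3 with samples left out. It was 0 without 20-kPa elastic replicate 2 or 3, and 1 without any single 20-kPa viscoelastic or 2-kPa elastic sample or 2-kPa viscoelastic replicate 3. For the mean effect 4 were called, with 2 under the length offset, 1 under the block with it, and 4 to 6 with samples left out.

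The replicate numbers were not treated as pairs, since the methods of the study name no such block. Same-numbered samples deviated together with a mean r of −0.025 (−0.20 to 0.31, with 2 of 18 pairs over 0.1). Those 2 were 2-kPa against 20-kPa viscoelastic samples, at 0.18 for replicate 1 and 0.31 for replicate 2, with 0.048 for replicate 3. Whether same-numbered samples share a source is not stated in the labels. Under the replicate block Tnks was at −0.22 at 2 kPa (adjusted p = 0.059) and −0.19 at 20 kPa (adjusted p = 0.072). Over all genes the calls for stiffness on viscoelastic gels moved from 331 to 769 (Wald test), 653 (every gene with a count), 38 (only the samples compared), 154 (replicate block), 178 (length offset), 82 (block with length offset) and 204 (block with GC offset). They were 36 without 20-kPa viscoelastic replicate 1 and 9 without its replicate 3. Calls for stiffness on elastic gels fell from 2029 to 1063 without 20-kPa elastic replicate 3 and to 1167 and 1341 without 2-kPa elastic replicates 1 and 2. For viscoelasticity at 2 kPa they fell from 2892 to 1545 and 1924 without those 2 replicates, at 20 kPa from 4866 to 3177 without 20-kPa elastic replicate 3, and for the interaction from 1100 to 670 without 2-kPa elastic replicate 1 and 727 without 20-kPa viscoelastic replicate 1. Scaling by total counts alone moved the split at 2 kPa from 1275 higher and 1617 lower to 1675 and 1258. The causes were not tested.

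The values that changed sign were not called with all samples and the settings of the report. For viscoelasticity at 20 kPa Parp4 was −0.0040 with DESeq2 size factors and −0.0041 by the Wald test, and Parp14 was 0.042 with the length offset and 0.035 with the block and that offset. For stiffness on elastic gels Tnks2 was 0.0036 with size factors, 0.0017 with total counts, 0.0035 by the Wald test, 0.0077 with the length offset and 0.0077 with block and length. On viscoelastic gels Tnks2 was 0.0068 and 0.0071 with the length offset, without and with the block. The interaction of Parp2 was −0.014 with size factors, −0.0059 with every gene, −0.014 by the Wald test, −0.0078 with the length offset and −0.0055 with block and length, and that of Parp4 was 0.013 with the length offset either way. For the mean effect Parp8 was 0.037 with total counts, 0.0019 with every gene, 0.093 and 0.090 with the length offset and 0.0040 and 0.0016 with the GC offset, without and with the block, and Zc3hav1 was 0.0034 and 0.0039 with the length offset.

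With samples left out, the range crossed 0 for these values. For stiffness on elastic gels it was −0.063 to 0.030 for Parg, −0.016 to 0.067 for Parp3, −0.19 to 0.0088 for Parp9 and −0.029 to 0.027 for Tnks2. On viscoelastic gels it was −0.026 to 0.19 for Parg, −0.072 to 0.020 for Parp12, −0.28 to 0.010 for Parp14, −0.0031 to 0.12 for Parp2, −0.017 to 0.20 for Parp9, −0.13 to 0.016 for Tnks and −0.077 to 0.019 for Tnks2. For viscoelasticity at 2 kPa it was −0.085 to 0.0042 for Parp12 and −0.018 to 0.069 for Parp4, and at 20 kPa −0.26 to 0.023 for Parp14, −0.010 to 0.044 for Parp4 and −0.040 to 0.17 for Tiparp. For the mean effect it was −0.062 to 0.049 for Dtx3l, −0.0036 to 0.049 for Parp12, −0.085 to 0.059 for Parp14, −0.0040 to 0.039 for Parp4 and −0.032 to 0.040 for Parp8. For the interaction it was −0.011 to 0.090 for Parp1, −0.069 to 0.051 for Parp2, −0.060 to 0.027 for Parp4, −0.075 to 0.026 for Tnks2 and −0.032 to 0.12 for Tnks.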
